A study of Mus musculus with 8 samples.

Results

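Genes of the cell death machinery were examined in the retina of mice that lack lysophosphatidylcholine acyltransferase 1 (Lpcat1), an enzyme that adds a fatty acid to lysophosphatidylcholine. The 47 genes were picked by symbol as known members of these pathways, with earlier results of these data known and with no measured value in the rule, out of 20018 genes that the array's transcript accessions could be matched to, and they are read by 58 of its 55681 probes. They fall into 15 members of the BCL2 family, 12 caspases and apoptosome components and 4 genes of death receptor signalling. The other groups are p53 with its targets and the Gadd45 genes (6 genes) and 10 genes of death other than apoptosis. Both groups were whole retinas of C57BL/6 mice at 2 weeks of age, and they differed by genotype, Lpcat1 WT or Lpcat1 KO. The KO is a deletion in every cell of the body, so no gene below can be tied to loss of the enzyme in one cell type. The methods state that the line was made on a C57BL6/N background and crossed to C57BL6/J, and that mice homozygous for the rd8 allele of Crb1 were not used. Each genotype has 4 samples, and the labels do not say whether these came from separate animals, so the p-values measure the spread between these samples only.

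Apoptosis runs along 2 routes. In the mitochondrial route, BH3-only proteins release the pore formers Bax and Bak1 from their pro-survival relatives, cytochrome c leaves the mitochondrion, and Apaf1 assembles with it into the apoptosome that activates caspase 9. In the death receptor route, a ligated receptor such as Fas recruits Fadd and caspase 8, and Cflar restrains that step. Where caspase 8 is blocked, Ripk1, Ripk3 and Mlkl can carry out necroptosis, a lytic death, and gasdermins form the pores of pyroptosis. Several of these proteins are controlled by cleavage, localisation or binding, none of which an RNA array measures. Photoreceptor loss in inherited retinal degeneration has been linked to apoptosis and to caspase-independent routes that involve calpains and poly(ADP-ribose) polymerase.

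Levels are log2 signals of 1 probe relative to the 75th percentile of its array, and differences are KO minus WT on that log2 scale. Since probes bind with different strength, a level is compared between arrays and not between genes. A gene was called when its adjusted p was under 0.05 and its fold change over 1.2. The library labels held for the targeted gene, as Lpcat1 was at -0.42, -0.39, -0.43 and -0.38 in WT and at -0.88, -0.92, -0.90 and -0.78 in KO (difference -0.46, SE 0.04, limma adjusted p = 0.0036). All 12 rod markers were well above background on all 8 arrays. The WT arrays all lay in row 1 of the slide and the KO arrays in row 2, so slide row and genotype cannot be told apart. Markers of some cell types were called, where 1.99% of all genes were called higher and 1.49% lower. Among rod markers, 3 of 12 were called lower (median difference -0.21), and their summed relative signal ran from 2351 to 2453 on WT arrays and from 1984 to 2149 on KO arrays. Among microglia and macrophage markers, 7 of 13 were called higher (median 0.45), although their summed signal overlapped, at 32.4 to 39.9 on WT and 36.8 to 42.5 on KO arrays. Among Müller glia markers 3 of 9 were called higher, where the sums were 342 to 360 for WT and 409 to 417 for KO, and among cone markers 2 of 8, where they were 207 to 211 and 232 to 244. No marker of these 4 lists was at background on all arrays. Of 4 astrocyte and reactive glia markers 1 was called higher, and the largest difference in that list was 1.90. No marker was called for ganglion, bipolar, amacrine and horizontal cells, endothelium, pigment epithelium, lens or blood. In bulk tissue, fewer cells of a type and less RNA per cell cannot be told apart, and the part of these shifts in the results below was not tested.

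Probe sequences were not used here, and the promoters of the 2 members that were called, Gadd45b and Capn11, are shown as the DNA nearest to the results. Each is the 250 bases before the transcript start from RefSeq (GRCm38.p6), written 5′ to 3′ on the strand of the gene, at chr10:80929841-80930090 on the plus strand for Gadd45b and at chr17:45659310-45659559 on the minus strand for Capn11. Capitals mark a match, on either strand, to 1 of 4 motifs: AP-1 (TGACTCA), the cAMP response element (TGACGTCA), the E-box CACGTG, or a pair of CATG cores spaced as in the p53 consensus.
Gadd45b: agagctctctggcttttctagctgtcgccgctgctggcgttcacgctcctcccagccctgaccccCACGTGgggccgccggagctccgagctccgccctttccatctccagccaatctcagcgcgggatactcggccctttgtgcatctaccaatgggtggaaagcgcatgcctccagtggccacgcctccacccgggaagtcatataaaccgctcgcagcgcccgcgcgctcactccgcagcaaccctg
Capn11: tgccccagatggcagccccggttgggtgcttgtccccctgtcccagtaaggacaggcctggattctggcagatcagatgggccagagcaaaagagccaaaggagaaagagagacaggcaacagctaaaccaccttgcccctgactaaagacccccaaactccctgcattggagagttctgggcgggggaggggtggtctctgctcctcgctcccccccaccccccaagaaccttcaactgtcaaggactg
The Gadd45b promoter held an E-box 185 to 180 bases before the start, and the Capn11 window held none of the 4 motifs. Of 32851 promoter windows of the same length, 6.02% held this E-box, against 7 of the members' 56 windows (12.5%), which belong to 42 of the 47 genes. The p53 pair was found in 0.49% of all windows and in 1 of the members' windows, that of Cdkn1a. AP-1 was found in 4.46% of all windows and the cAMP response element in 1.55%, against 2 of the members' windows each (3.57%). A match is a description of letters, and the arrays did not measure binding.

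Of the 47 genes, 42 passed the filter for signal above background and were tested. Of these, 40 were well above background on all 8 arrays. Ripk3 and Mlkl passed through the WT arrays alone, the group where they were higher. Both are included in the counts over 42 genes that follow, but their differences lend those counts no support. Gadd45b was called higher and Capn11 lower in KO, and the other 40 were not called. These 2 of 42 (4.76%) stand beside 519 of the 14937 genes tested on the array, or 3.47%, of which 1.99% were higher and 1.49% lower, so the share called was near that of all genes. The differences of the 42 genes had a median of -0.04, against -0.02 over all genes, and the median was also -0.04 without Ripk3 and Mlkl. Below 0 were 27 of 42 (64.3%), against 57.8% of all genes, and 25 of 40 without Ripk3 and Mlkl. The median of the 42 genes stood at 0.00 under cyclic loess normalization. In 10 of 42 genes (23.8%) the 4 KO arrays did not overlap the 4 WT arrays, and the share over all genes was 21.2%. KO lay above WT in 2 of them, where 8.78% of all genes did, and below in 8 including Mlkl, where 12.4% of all genes did. An unadjusted limma p under 0.05 was reached by 9 of the 42 genes, 2 higher and 7 lower, against 26.2% of all genes, and by 8 of 40 without Ripk3 and Mlkl. The arrays were precise enough to bound most members. The 95% interval of the difference lay within a change of 1.2-fold in either direction for 27 of 42 genes (64.3%, against 63.6% of all genes) and within 1.5-fold for 38 (90.5%, against 94.2%). The median SD between arrays of one genotype was 0.07 on the log2 scale, as it was over all genes.

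**Figure D1:**
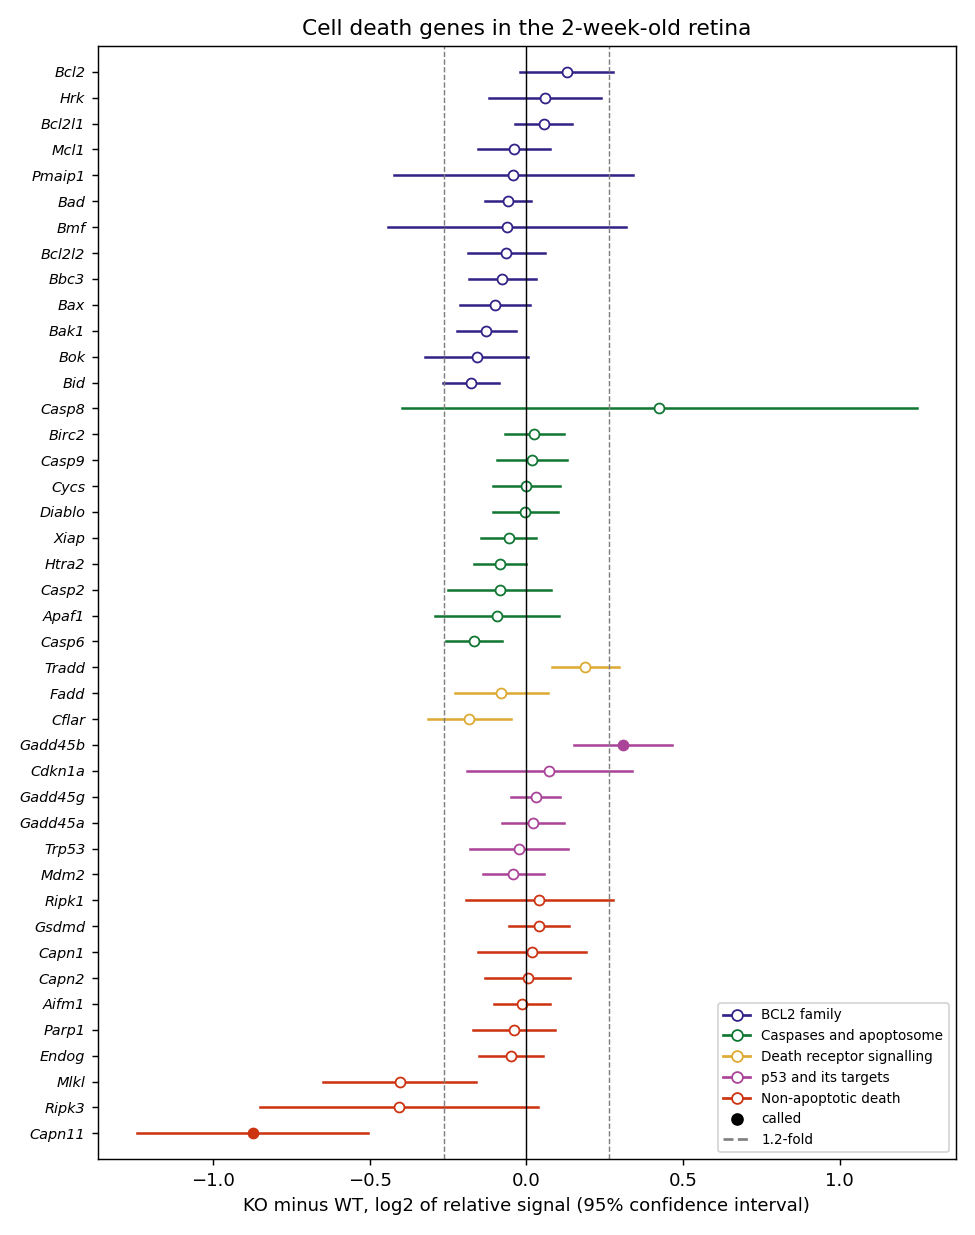
The horizontal axis gives the KO minus WT difference of each tested member in log2 of relative signal, and the vertical axis lists the 42 genes by group. Points are means of 4 against 4 arrays, bars are 95% confidence intervals, filled points were called and dashed lines mark a 1.2-fold change, which 27 of the 42 intervals do not reach.

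In the BCL2 family, 13 of 15 genes were tested and none was called (0 of 13, against 3.47% of all genes). An unadjusted limma p under 0.05 was reached by 2 of them, both lower, against 26.2% of all genes. The difference was below 0 in 10 of the 13 genes, against 57.8% of all genes. That count was 8 after cyclic loess and 9 after normexp. The median difference was -0.06, against -0.02 over all genes. The 4 pro-survival genes lay on both sides of 0. Bcl2, the founding member, which protects the outer mitochondrial membrane, was at -0.74, -0.65, -0.91 and -0.64 in WT and at -0.61, -0.67, -0.55 and -0.59 in KO. The genotypes overlapped, and the difference of 0.13 had a 95% interval from -0.02 to 0.28 (limma adjusted p = 0.274). Bcl2l1, which encodes Bcl-xL, was at 4.24, 4.18, 4.21 and 4.21 in WT and at 4.30, 4.31, 4.27 and 4.19 in KO, again with overlap (difference 0.06, adjusted p = 0.441). Bcl2l2 and Mcl1, other pro-survival members, differed by -0.06 and -0.04.

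All 3 genes for pore-forming effectors were lower in KO on average, and none passed the test. Bax, which oligomerises in the mitochondrial outer membrane, was at 2.09, 2.09, 1.91 and 2.07 in WT and at 1.94, 1.93, 1.93 and 1.96 in KO. WT replicate 3 lay below all KO arrays and the other WT arrays above them (difference -0.10, SE 0.05, limma adjusted p = 0.262), and without it the difference was -0.14. Bak1, its partner, did not overlap, but its lowest WT array (1.09) and highest KO array (1.08) nearly met, and the difference of -0.13 did not pass (adjusted p = 0.104). Bok, a related effector, differed by -0.16 with overlap (adjusted p = 0.227). The differences of Bax, Bak1 and Bok stayed below 0 in all 22 alternative fits. These fits reuse the same 8 arrays, so they are not independent of one another. In the main fit 57.8% of all genes lay below 0.

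The BH3-only genes, whose products sense stress and trigger the effectors, were 6 tested genes of 8. Bid, which caspase 8 cleaves to link the receptor route to the mitochondrion, was at -0.03, -0.10, -0.07 and -0.06 in WT and at -0.18, -0.23, -0.26 and -0.30 in KO. Every KO array lay below every WT array, and the difference of -0.18 (SE 0.04) had a limma adjusted p of 0.041 but was smaller than the fold limit. Its adjusted p was under 0.05 in 9 of the 22 alternative fits. Bad, a BH3-only protein that growth factor signalling holds inactive, also did not overlap, with a smaller difference of -0.06 (adjusted p = 0.305). On a second probe of Bad the difference was -0.05 and the genotypes overlapped. Bbc3 (Puma) and Pmaip1 (Noxa), both p53-induced, differed by -0.08 and -0.04 and did not pass. Hrk, a BH3-only gene of neurons, was at -1.98, -2.09, -2.09 and -1.997 in WT and at -1.85, -1.85, -2.15 and -2.07 in KO, with 2 KO arrays above and 1 below all WT arrays (difference 0.06, adjusted p = 0.69). Bmf, which is released from the cytoskeleton, had one of the widest spreads, with an SD of 0.27 in each genotype. Its genotypes overlapped, and the interval ran from -0.44 to 0.32. Bcl2l11 (Bim) was well above background on 1 WT and 2 KO arrays and Bik on none, so neither was tested. The levels of Bcl2l11 were -5.35, -5.23, -4.46 and -5.17 in WT and -4.75, -4.93, -4.72 and -3.91 in KO, near the limit of detection and overlapping.

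Among caspases, the apoptosome and their regulators, 10 of 12 genes were tested and none was called (0 of 10, against 3.47% of all genes). An unadjusted limma p under 0.05 was reached by 2 of them, both lower, against 26.2% of all genes. The median difference was -0.03. Apaf1, the apoptosome scaffold, was at -2.20, -2.41, -2.14 and -1.97 in WT and at -2.30, -2.26, -2.22 and -2.32 in KO. The KO arrays lay inside the WT range (difference -0.09, adjusted p = 0.546). Casp9, the initiator caspase that the apoptosome activates, was at 2.00, 2.13, 1.97 and 2.10 in WT and at 2.05, 2.10, 2.11 and 2.02 in KO, and its interval of -0.09 to 0.13 lay within a 1.2-fold change. Cycs, cytochrome c, differed by 0.00 with an interval from -0.11 to 0.11.

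Casp6, an effector caspase that cleaves lamins, was at 0.29, 0.32, 0.25 and 0.36 in WT and at 0.16, 0.09, 0.14 and 0.16 in KO. The genotypes did not overlap, and the difference of -0.17 (SE 0.04, limma adjusted p = 0.048) was under the fold limit. Its adjusted p was under 0.05 in 7 of the 22 alternative fits. Casp8, the initiator caspase of the receptor route, was at -2.47, -2.60, -2.59 and -2.67 in WT and at -2.38, -0.94, -2.57 and -2.75 in KO. A single array, KO replicate 2, carried the difference of 0.42 (SE 0.36, adjusted p = 0.515), which was 0.02 without that array. Casp2 differed by -0.09 and did not pass. Casp12, a caspase linked to endoplasmic reticulum stress, was well above background on 0 of 8 arrays, so these arrays give no level for it.

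Of 5 genes for proteins that act on caspases, 4 were tested and 0 were called by limma. Htra2 alone reached an unadjusted limma p under 0.05, against 26.2% of all genes. Xiap, a direct caspase inhibitor, differed by -0.06, and Birc2, which ubiquitinates Ripk1, by 0.03, both with intervals within a 1.2-fold change. Birc3 was well above background on 0 of 8 arrays. Diablo and Htra2 leave the mitochondrion and displace such inhibitors. Diablo differed by 0.00, and Htra2 by -0.08 without overlap between genotypes (adjusted p = 0.205). On a second probe of Htra2 the difference was -0.10 and the genotypes overlapped.

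In death receptor signalling, 3 of 4 genes were tested and none was called (0 of 3, against 3.47% of all genes). Tradd was higher and Cflar lower at an unadjusted limma p under 0.05, which 26.2% of all genes reached. Tradd, an adaptor of the tumour necrosis factor receptor, was at 0.22, 0.26, 0.33 and 0.26 in WT and at 0.42, 0.38, 0.54 and 0.48 in KO. All KO arrays lay above all WT arrays, by 0.19 (SE 0.05, adjusted p = 0.055). Cflar, which encodes c-FLIP, was at 0.63, 0.72, 0.65 and 0.84 in WT and at 0.62, 0.50, 0.48 and 0.50 in KO. Its genotypes did not overlap, although KO replicate 1 nearly met the lowest WT array (difference -0.18, adjusted p = 0.103). The other 2 probes of Cflar gave -0.02 and 0.12, so the fall was not seen on all its probes. Fadd, which joins receptor and caspase 8, differed by -0.08 (adjusted p = 0.5).

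Fas, the receptor itself, was detected well above background on 3 of the 4 KO arrays and on 0 of the 4 WT arrays. Its processed signals were 16.0, 15.6, 17.8 and 14.4 in WT and 22.9, 28.7, 31.8 and 43.1 in KO. Every KO signal was above every WT signal. Against the lowest level measurable on the WT arrays, KO was 1.596-fold higher. This bound was computed from the KO mean and a WT level. For each WT array, that was the larger of the probe's own level and the lowest level that counted as detected on that array. KO replicate 2, which was not well above background, entered the KO mean at its own level. The bound therefore rests in part on an array near the limit of detection and is not strict. The probe did not enter the test, since neither genotype had it well above background on 4 arrays. In a fit without that filter the adjusted p was 0.078, so the rise was not called there.

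**Figure D2:**
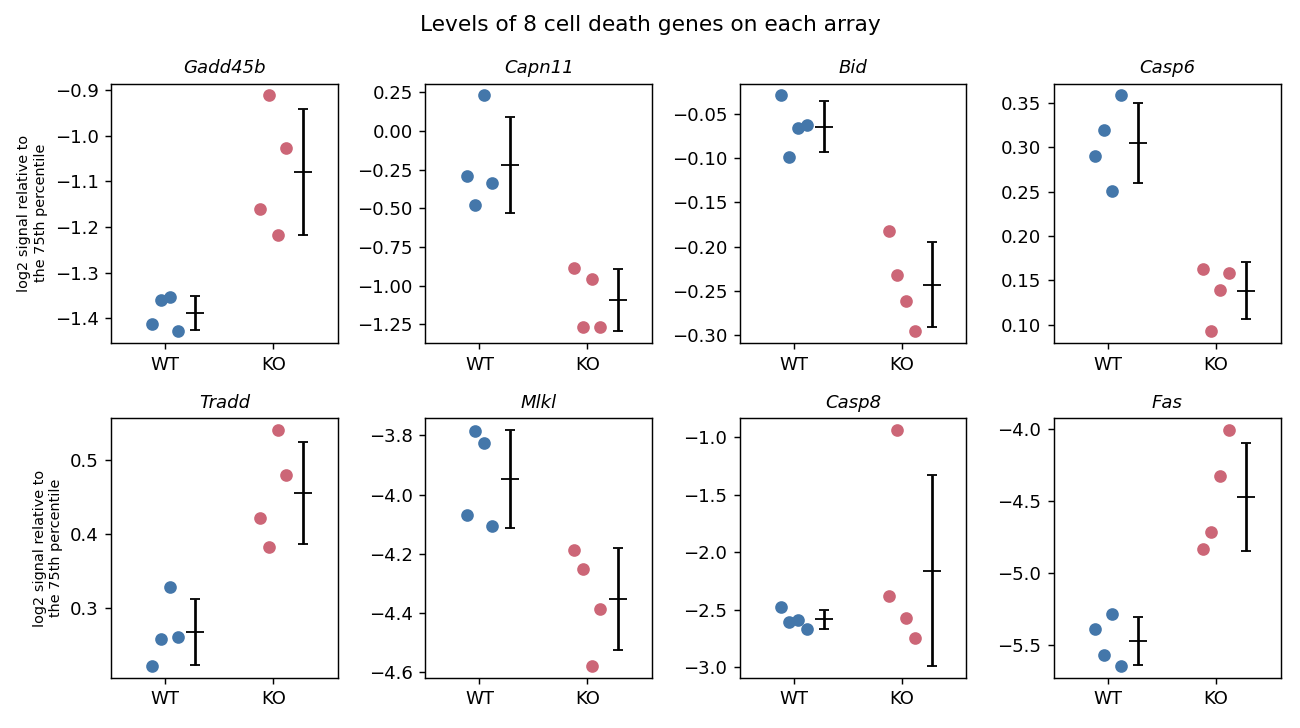
Each panel shows 1 gene, with genotype on the horizontal axis and the log2 signal relative to the array's 75th percentile on the vertical axis, whose range differs between panels. Dots are the 4 arrays of a genotype in replicate order, the dash is the mean and the bar ± 1 SD, and the groups overlap in Casp8 alone among the 8 genes, where KO replicate 2 stands apart at -0.94.

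For p53, its targets and the Gadd45 genes, all 6 genes were tested, with a median difference of 0.03. Gadd45b, which stands here as a Gadd45 gene, was called higher (1 of 6, against 1.99% of all genes). The number called lower was 0, against 1.49% of all genes. The printed Gadd45b window held no p53 pair, Cdkn1a and Mdm2 were not called, and control by p53 was not tested. Trp53, which encodes p53, was at -2.60, -2.68, -2.65 and -2.77 in WT and at -2.58, -2.62, -2.84 and -2.76 in KO, with overlap and a difference of -0.02. Mdm2, the ligase that degrades p53 and is itself a p53 target, was at 3.83, 3.89, 3.90 and 3.98 in WT and at 3.88, 3.84, 3.88 and 3.83 in KO, with an interval of -0.14 to 0.06. Cdkn1a (p21), the cell cycle inhibitor most often read as a p53 target, was at -1.003, -0.97, -0.78 and -0.75 in WT and at -1.03, -0.92, -0.75 and -0.51 in KO. Only KO replicate 4 lay above the WT range, and the difference of 0.07 (adjusted p = 0.739) was -0.02 without it.

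The Gadd45 genes encode small stress proteins that bind kinases and cell cycle regulators. Gadd45b was at -1.41, -1.36, -1.35 and -1.43 in WT and at -1.16, -0.91, -1.22 and -1.03 in KO. All KO arrays lay above all WT arrays and spread more widely, with an SD of 0.14 against 0.04. The rise of 0.31 (SE 0.07, 95% interval 0.15 to 0.47, limma adjusted p = 0.042) is a 1.24-fold change, close to the limit of 1.2-fold. The call was lost without WT replicate 1, 2, 3 or 4 or without KO replicate 2 or 4, where the difference was 0.25 to 0.32 and the adjusted p 0.08 to 0.099. It was also lost after a median shift (adjusted p = 0.071), after normexp background correction (0.064), without the filter on dim probes (0.114), by the methods' t-test (0.062) and with the replicate number as a block (0.076). The difference was above 0 in all 22 alternative fits, from 0.24 to 0.35, and these fits reuse the same 8 arrays. Gadd45a and Gadd45g, with differences of 0.02 and 0.03 and intervals within 1.2-fold, did not pass.

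Outside apoptosis, 10 of 10 genes were tested, and 0 were called higher and 1 lower, against 1.99% and 1.49% of all genes. Without Ripk3 and Mlkl, the differences of the other 8 genes had a median of -0.01. Of these 8, 4 were below 0, against 57.8% of all genes. The necroptosis genes were dim. Ripk1, the kinase at the branch between survival and death, was at -2.78, -2.45, -2.39 and -2.41 in WT and at -2.63, -2.36, -2.51 and -2.36 in KO, with overlap (difference 0.04, adjusted p = 0.836). Ripk3, which Ripk1 activates, was at -4.84, -4.05, -4.68 and -4.54 in WT and at -4.52, -5.05, -5.01 and -5.16 in KO. It was well above background on 4 WT arrays and 1 KO array, and 3 KO arrays lay below all WT arrays while KO replicate 1 lay among them. Mlkl, the pore former of necroptosis, was at -4.07, -3.79, -3.83 and -4.11 in WT and at -4.19, -4.25, -4.58 and -4.39 in KO. Its genotypes did not overlap, but 1 KO array was not well above background. For both genes the KO levels lie at or near the limit of detection, and the fitted differences, -0.41 for Ripk3 and -0.40 for Mlkl, neither of which was called, are given as descriptions. Under normexp background correction they shrank to -0.01 and -0.12. Gsdmd, which forms the pores of pyroptosis, was at -2.76, -2.81, -2.71 and -2.76 in WT and at -2.79, -2.66, -2.72 and -2.73 in KO, and its interval of -0.06 to 0.14 lay within 1.2-fold.

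Parp1, the DNA damage sensor whose overactivity drives parthanatos, was at 0.99, 1.13, 1.06 and 1.19 in WT and at 0.95, 1.04, 1.103 and 1.11 in KO. These overlapped, and the difference was -0.04 (adjusted p = 0.71). Aifm1 and Endog, which move from the mitochondrion to the nucleus, differed by -0.02 and -0.05 with intervals within 1.2-fold.

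Calpains are calcium-activated proteases. The ubiquitous Capn1 was at -1.57, -1.73, -1.66 and -1.69 in WT and at -1.63, -1.79, -1.45 and -1.71 in KO, with a difference of 0.02. Capn2, the catalytic subunit of m-calpain, was at 1.99, 2.10, 2.12 and 2.20 in WT and at 2.01, 2.10, 2.21 and 2.10 in KO, with a difference of 0.00. Neither separated the genotypes. Capn11, a calpain known mainly from the testis, was at -0.29, -0.48, 0.23 and -0.33 in WT and at -0.89, -1.26, -0.95 and -1.26 in KO. All KO arrays lay below all WT arrays, and WT replicate 3 was the highest. The fall of -0.87 (SE 0.16, 95% interval -1.24 to -0.50, limma adjusted p = 0.026) left 0.55 times the WT signal. It was read by 1 probe, and it stands in this group as a calpain by family. The call was lost without WT replicate 1 or 4 or KO replicate 2, 3 or 4, with an adjusted p of up to 0.074, and also without the filter on dim probes (0.083) and by the methods' t-test (0.0503), while the difference ranged from -0.96 to -0.72 with each array left out, the smallest without WT replicate 3.

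**Figure D3:**
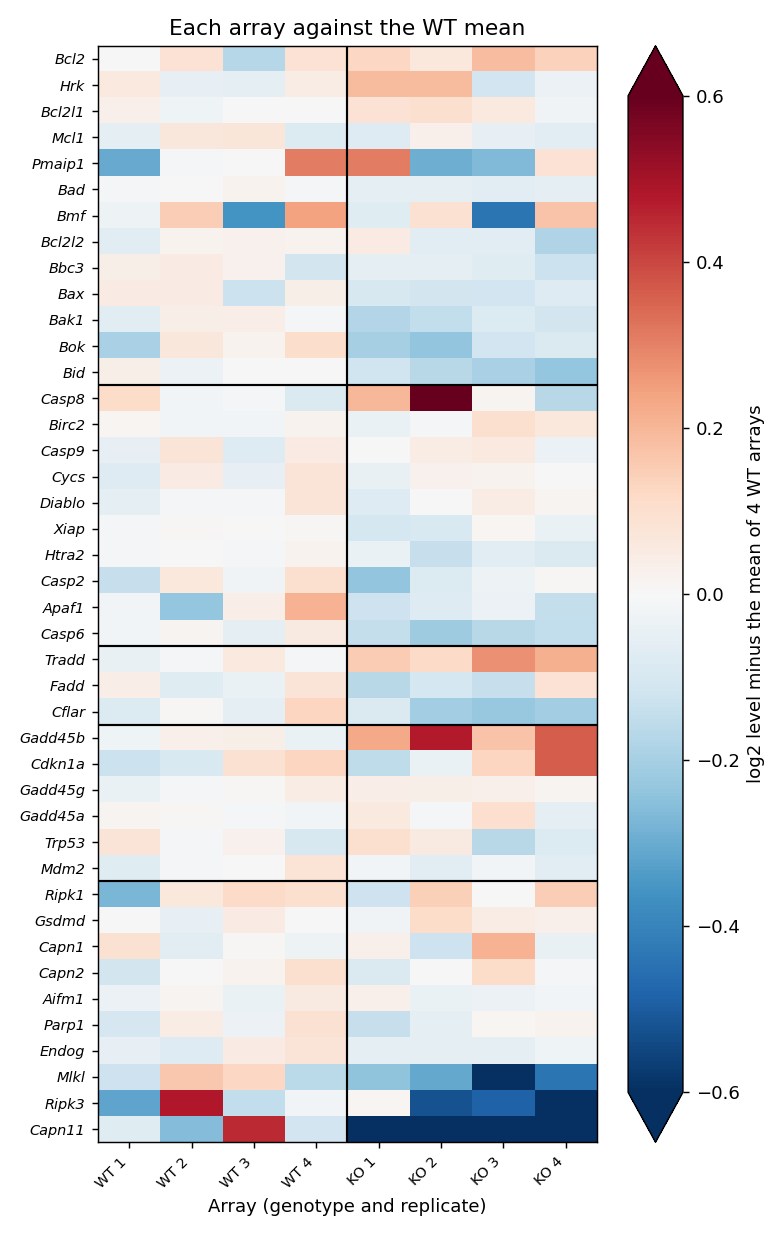
Colours give each array's log2 level minus the mean of the 4 WT arrays, for the 42 tested members in rows (grouped as in the text) and the 8 arrays in columns, with colours capped at 0.6 in either direction. Gadd45b is above the WT mean on all 4 KO arrays and Capn11 below the cap on all 4, while most other rows stay pale on both sides.

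A second list of 85 genes held the rest of these pathways, of which 81 have a probe and 68 were tested. Of these, 2 were called higher and 1 lower (4.41%, against 3.47% of all genes), with a median difference of -0.01. Tnfrsf1a, the main receptor for tumour necrosis factor, to which Tradd binds, was at -0.94, -0.93, -0.91 and -0.89 in WT and at -0.59, -0.51, -0.62 and -0.65 in KO. The genotypes lay well apart, with a rise of 0.32 (SE 0.04, limma adjusted p = 0.010) that was called in each of the 8 analyses with 1 array left out but not with the replicate number as a block (adjusted p = 0.053). Bcl2a1d, a pro-survival gene of blood cells and microglia, was at -3.70, -3.40, -3.33 and -3.55 in WT and at -2.95, -2.92, -2.89 and -3.16 in KO (difference 0.52, SE 0.09, adjusted p = 0.024). Its near-identical copies Bcl2a1a and Bcl2a1b have no probe of their own here, so the signal may stem from any of them, and it moved with the microglia and macrophage markers, of which 7 of 13 were called higher. Its call was lost without WT replicate 1, 2 or 4 or KO replicate 2 or 3, with an adjusted p of up to 0.071, without the filter on dim probes (0.081) and with the replicate block (0.0515). Birc5 (survivin), an inhibitor of apoptosis that is mainly a protein of dividing cells, was at -1.45, -1.53, -1.60 and -1.34 in WT and at -1.68, -1.995, -1.77 and -1.93 in KO. All KO arrays lay below all WT arrays (difference -0.37, SE 0.08, adjusted p = 0.046), and the call was lost in 7 of 8 analyses with 1 array left out, all but that without KO replicate 1, with an adjusted p of up to 0.108, and under 8 other settings, among them the median shift (0.0705) and the methods' t-test (0.074).

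Casp1, the inflammatory caspase that cleaves Gsdmd, also stood in the second list. It was well above background on 1 WT and 1 KO array and was not tested.

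**Figure D4:**
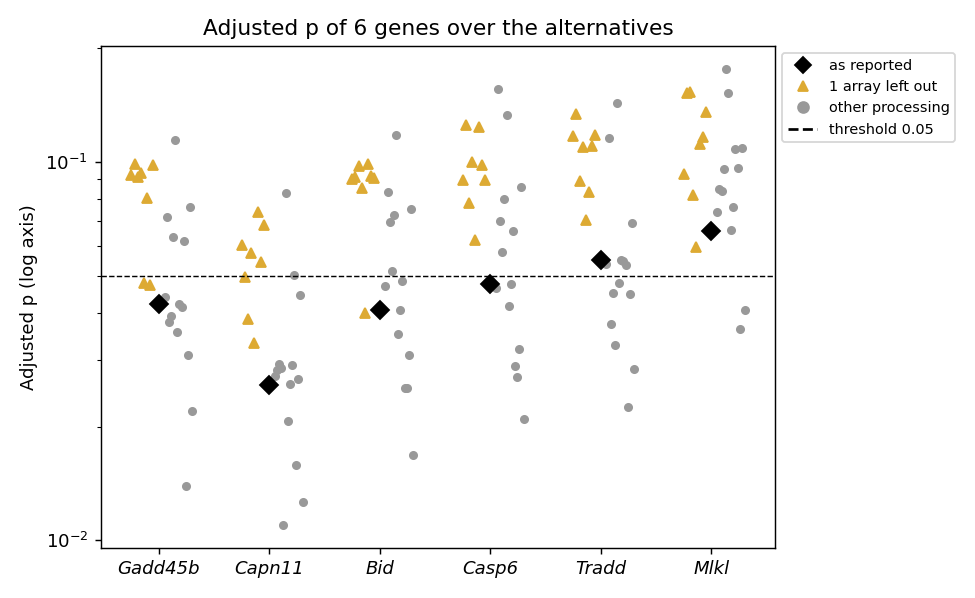
For 6 members on the horizontal axis, the vertical axis gives the adjusted p on a log scale, with the threshold of 0.05 as a dashed line. It is shown as reported (diamonds), with 1 array left out (triangles) and under other processing (circles). All values are from limma except the circle of the methods' t-test. Capn11 is under the threshold in 15 of 22 alternative fits and Gadd45b in 11, against 9 for Bid, 7 for Casp6, 7 for Tradd and 2 of 21 for Mlkl, which passed the filter through the WT arrays alone.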

How the data were processed

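Total RNA of the whole retina was measured in 4 WT and 4 KO samples, each labelled with Cy3 and hybridised to 1 Agilent array, on 1 slide. The authors quantified the scans with Agilent Feature Extraction 10.7.1.1 (version per the submitters' processing notes), and the deposited scanner files hold intensity on a linear scale, with background subtracted and a spatial trend removed. The deposited table of the series holds the authors' log2 values after a 75th percentile shift in GeneSpring. Its columns have medians of -3.30 to -3.20 and differ from the levels used here by constants of 0.12 to 0.15 (SD at most 0.0067 over 55681 probes), so their scale and centring are known, and they served as an alternative.

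Levels were log2 processed signals minus the 75th percentile over each array's non-control spots (638 to 738 signal units). Outlier spots (86 to 147 per array) were left out, repeated spots were averaged, and 0 spots were saturated. A probe was tested when well above background on 4 arrays of a genotype (33972 probes). Symbols came from RefSeq by transcript accession (47.4% of probes), and a gene's value was its probe with the highest mean. The genotype effect was fitted for every probe with limma 3.58.1 (R 4.3.3) and no other term, p-values were adjusted by Benjamini-Hochberg across the 33972 probes, and 992 probes were called (470 higher, 522 lower). The study's methods give the 75th percentile shift and the thresholds used here, with others. The number of arrays limits the precision. On simulated data of 33972 probes for this comparison, limma called 43 of 50 probes changed by 1 on the log2 scale, 72 of 100 changed by 0.5 and 19 of 50 changed by 0.3, with 6 unchanged probes. The members, the second list and the markers were chosen with earlier results of these data known. Values in every sample are given for called members, for the largest rise and fall of each group and for a fixed set of key genes, of which some are not reported here.

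The alternatives tried were other scalings (quantile, cyclic loess, the median of each array, or its 75th percentile over detected probes only), normexp (offset 50, run on median spot signals), no filter and a stricter one, outlier spots kept, the authors' values, the methods' t-test, a trend with robust eBayes, array weights, other thresholds, the mean of a gene's probes, the replicate number as a block, and each array left out. All per-sample columns of the files were mapped.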

Additional observations from a re-analysis of the deposited data

Results flagged for a closer look

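In 6 of 96 groups of 4 arrays (the 47 members and Lpcat1 in 2 genotypes, 6.25%), the highest or lowest array stood far from the rest by Dixon's ratio (critical value 0.829). Chance gives about 1 in 20. In WT, Bcl2l2 was at 1.81 on replicate 1, with the nearest array at 1.90, and Ripk1 at -2.78 on the same array, with the nearest at -2.45. Bax was at 1.91 on WT replicate 3 (nearest 2.07), and Bbc3 at 1.53 on WT replicate 4 (nearest 1.66). In KO, Cflar was at 0.62 on replicate 1 (nearest 0.50), and Endog at 1.41 on replicate 4 (nearest 1.38). None of these 6 genes was called with all arrays.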

How the results depend on the processing

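With 4 arrays per genotype, calls near the threshold rest on single arrays, and dim genes (Fas, Bcl2l11, Ripk3, Mlkl) are limited by the background. The 992 probes called became 246 without the filter on dim probes, 1869 without a minimum fold, 138 at a fold over 1.5, 3136 at an adjusted p under 0.5, 395 with the replicate block and 391 to 1182 with 1 array left out (at most 552 in all but the run without KO replicate 1). The methods' t-test, at the same thresholds after Benjamini-Hochberg adjustment, called 352 higher and 349 lower. The split of higher and lower probes, 470 and 522, was 583 and 368 with the 75th percentile of detected probes, 614 and 346 after cyclic loess, 424 and 278 after normexp, 84 and 54 at a fold over 1.5 and 1124 and 2012 at an adjusted p under 0.5. Of the scalings, cyclic loess moved the median of all probes most, by 0.0319.

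Members called higher (1) fell to 0 after the median shift, normexp, no filter, the methods' t-test, a fold over 1.5 and the replicate block, and were 0 to 1 with 1 array left out. Members called lower (1) were 0 without the filter and by the t-test, 2 with array weights and with the mean of a gene's probes, 3 without a minimum fold and at an adjusted p under 0.5, and 0 to 1 with 1 array left out. The members' median of -0.04 was -0.0165 after quantile normalization, 0.0019 after cyclic loess, -0.0051 after normexp and -0.0614 to -0.0113 with 1 array left out. In the second list, genes called higher (2) were 1 without the filter, 4 without a minimum fold, 0 at a fold over 1.5 and with the replicate block, and 1 to 2 with 1 array left out. Genes called lower (1) were 0 after the median shift, the 75th percentile of detected probes, cyclic loess, no filter, the authors' values, the t-test, a fold over 1.5 and the replicate block, 2 at an adjusted p under 0.5, and 0 to 1 with 1 array left out. The Lpcat1 difference of -0.46 was under a fold of 1.5.

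Directions turned only in genes that did not pass the test, and the cause was not tested. Cycs went to 0.0600 after quantile normalization, 0.0098 after the median shift, 0.0211 with the 75th percentile of detected probes, 0.0485 after cyclic loess and 0.0115 with the authors' values. Diablo went to 0.0249, 0.0074, 0.0188, 0.0246 and 0.0091 under the same settings in that order and to 0.0052 with array weights. Aifm1 went to 0.0082, 0.0065 and 0.0092 after quantile normalization, detected probes and cyclic loess. After cyclic loess Mcl1 was 0.0017, Pmaip1 0.0161, Trp53 0.0168 and Mdm2 0.0022, and after normexp Mcl1 was 0.0254, Trp53 0.0196, Mdm2 0.0021, Ripk1 -0.0324 and Endog 0.0033. With 1 array left out, Bmf ranged from -0.182 to 0.0630, Pmaip1 from -0.158 to 0.0601, Cycs from -0.0269 to 0.0256, Casp9 from -0.0080 to 0.0445, Diablo from -0.0216 to 0.0221, Trp53 from -0.0651 to 0.0228, Cdkn1a from -0.0225 to 0.149, Gadd45a from -0.0038 to 0.0476, Ripk1 from -0.04999 to 0.0965, Aifm1 from -0.0310 to 0.0034, Capn1 from -0.0460 to 0.0651 and Capn2 from -0.0330 to 0.0360.

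Same-numbered WT and KO arrays had deviations that correlated at 0.25, 0.07, 0.04 and 0.11, and 3 of 4 WT arrays (replicates 1, 2 and 4) correlated best with the KO array of the same number, which is a hint from the data. Since the labels give no shared litter or day and not every pair exceeded 0.1, the numbers were not taken to pair the arrays. With the replicate block the adjusted p was 0.076 for Gadd45b and 0.0445 for Capn11, and the interval of Bmf narrowed to -0.15 to 0.02.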
